A study of Homo sapiens with 6 samples.

Results

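Genes of protein folding and quality control in the endoplasmic reticulum (ER) were followed in MM1S, a human line established from multiple myeloma, in which antibody-secreting plasma cells are malignant. The list of 43 genes covers ER chaperones, enzymes of disulphide bond formation, sensors of the unfolded protein response, the machinery of ER-associated degradation (ERAD) and the translocon. A gene was included where a probe set of the array carried its symbol alone, and it was read by the brightest such probe set. On that basis 40 members were measured, among 19775 genes in all, while PDIA5 and SYVN1, whose probe sets are shared with other symbols, and SEC61G were not analysed here.

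RNA came from cells labelled normoxia on 3 single-colour arrays and from cells labelled hypoxia on 3, numbered 0, 1 and 2 in each group. The exposure text gives 24 h of hypoxia, and it is the same for all arrays, those of normoxia included. No source used here gives the oxygen concentration, and no drug or genetic change is named for either group. Whether the arrays of a group came from separate cultures is not stated, so p-values rest on the spread between arrays alone, and that spread may be technical. Because the cultures were measured in bulk, fewer cells of a state and less RNA per cell cannot be told apart.

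Secreted and membrane proteins enter the ER through the SEC61 channel and are folded there by chaperones such as BiP, the product of HSPA5, and by protein disulphide isomerases. When unfolded proteins build up, the sensors ATF6, IRE1 (encoded by ERN1) and PERK (encoded by EIF2AK3) start the unfolded protein response. As a whole that response includes more synthesis of chaperones and of ERAD, which extracts misfolded proteins to the cytosol for the proteasome. Plasma cells make large amounts of immunoglobulin and rely on this system. ATF6 and XBP1, the factor that IRE1 activates by splicing, act through short promoter motifs known as ER stress response elements.

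Those elements were found in the promoters of 10 members, of which HERPUD1 alone is neither a chaperone nor an enzyme of oxidative folding. They are shown as a sequence feature of these genes. The members were listed for their part in ER folding and stress. The elements act in that same response, so their share among members is not independent of the choice. Promoters were taken from RefSeq (GRCh38.p14), from 250 bases before to 50 bases after each annotated start, for 39 of the 43 genes, with 47 starts. The element ERSE was searched on both strands as CCAAT, then 9 bases of any kind, then CCACG. It was in 9 of the 47 member promoters (19.1%), which belong to 7 genes, against 0.0769% of all 35116 promoters and 0.0931% of those of genes measured on the arrays. The CANX match was counted at several starts of that gene. The matches follow, 5′ to 3′ on the strand on which they read, with the fixed ends in capitals.
CALR, chr19:12938384-12938402: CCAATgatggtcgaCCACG
CANX, chr5:179698778-179698796: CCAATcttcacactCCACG
CRELD2, chr22:49918554-49918572: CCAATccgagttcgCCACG
ERO1B, chr1:236282183-236282201: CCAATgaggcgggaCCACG
HSP90B1, chr12:103930216-103930234: CCAATcggaaggagCCACG
HSP90B1, chr12:103930321-103930339: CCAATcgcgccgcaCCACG
HSPA5, chr9:125241391-125241409: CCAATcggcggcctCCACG
PDIA6, chr2:10812853-10812871: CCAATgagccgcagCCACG

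The variant ERSE-II was searched as ATTGG, then 1 base of any kind, then CCACG. Matches were in 3 member promoters (6.38%), against 0.0541% of all promoters, and HYOU1 held 2 of them. In these lines, too, the fixed ends are in capitals.
HERPUD1, chr16:56932025-56932035: ATTGGgCCACG
HYOU1, chr11:119057274-119057284: ATTGGaCCACG
HYOU1, chr11:119057380-119057390: ATTGGaCCACG
SDF2L1, chr22:21642114-21642124: ATTGGtCCACG

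The core TGACGTGG, which XBP1 and ATF6 are known to bind, was in 8.51% of member promoters, those of HYOU1, VCP, SEC62 and SSR3, against 0.729% of all promoters. The core ACGTG of hypoxia response elements, which lies within TGACGTGG, was in 53.2% of member promoters and in 21.4% of all. These are matches of letters in a window and not measured binding sites. The 250 bases before the start are printed for HSPA5 and CRELD2 with their ERSE in capitals, for SDF2L1 with its ERSE-II in capitals, and for ERO1A, the member with the largest rise, with its ACGTG in capitals. The windows read along the gene's strand, and in those of CRELD2, SDF2L1 and ERO1A the motif lies on the opposite strand, so that the capitals show its reverse complement.
HSPA5, chr9:125241344-125241593, minus strand: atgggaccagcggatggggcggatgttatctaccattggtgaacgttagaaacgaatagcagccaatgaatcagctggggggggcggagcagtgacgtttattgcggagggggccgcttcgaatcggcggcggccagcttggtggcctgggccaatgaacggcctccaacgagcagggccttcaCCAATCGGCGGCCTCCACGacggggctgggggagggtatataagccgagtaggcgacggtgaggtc
CRELD2, chr22:49918384-49918633, plus strand: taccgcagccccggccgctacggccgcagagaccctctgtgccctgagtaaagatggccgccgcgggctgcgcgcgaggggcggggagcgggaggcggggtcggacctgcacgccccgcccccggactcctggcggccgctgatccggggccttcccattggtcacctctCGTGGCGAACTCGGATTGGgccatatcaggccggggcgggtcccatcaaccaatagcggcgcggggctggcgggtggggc
SDF2L1, chr22:21642052-21642301, plus strand: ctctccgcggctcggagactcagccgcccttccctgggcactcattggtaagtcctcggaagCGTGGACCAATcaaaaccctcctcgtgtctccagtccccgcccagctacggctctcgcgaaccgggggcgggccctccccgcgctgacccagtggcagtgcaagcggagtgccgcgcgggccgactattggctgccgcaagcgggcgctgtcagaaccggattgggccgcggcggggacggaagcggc
ERO1A, chr14:52695559-52695808, minus strand: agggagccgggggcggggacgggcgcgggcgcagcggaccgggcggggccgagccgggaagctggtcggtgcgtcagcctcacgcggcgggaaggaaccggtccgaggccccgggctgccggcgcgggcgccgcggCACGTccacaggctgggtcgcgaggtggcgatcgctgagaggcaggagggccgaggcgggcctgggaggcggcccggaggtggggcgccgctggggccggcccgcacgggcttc

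Across all members, falls outnumbered rises. In limma with Benjamini-Hochberg adjustment over all genes, 17 of the 40 measured members (42.5%) fell and 5 (12.5%) rose past an adjusted p of 0.05, against 20.6% of all genes that fell and 16.9% that rose. Changes are given as hypoxia minus normoxia in log2(intensity + 16), a scale that understates changes of dim genes, with the 95% confidence interval. The median change of the members was -0.16, beside -0.00016 over all genes, and 16 of the 22 members that passed did so under every alternative processing tried. The members were brighter than most genes, with no mean intensity below 206, while the median intensity of all probe sets was 54.95 to 60.1 per array. Bright genes passed more often: among the 10287 genes with a mean intensity of at least 100, tested alone, 39.0% fell and 31.3% rose, and of the members 21 (52.5%) fell and 7 (17.5%) rose. Within each fit the members' share of falls was thus above that of the genes tested, and their share of rises was below it. The cut at 100 does not match the members, whose median normoxia intensity was 4167. The part of brightness in these shares was not tested. The roles differed, as the plot of changes by role shows: 8 of 11 chaperones fell and 0 rose, 2 of 3 sensors rose and 0 fell, and the median changes were -0.46 for chaperones, -0.25 for oxidative folding, 0.67 for sensors, -0.024 for ERAD and -0.10 for the translocon. These medians describe the members and were not tested against each other.

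**Figure D1:**
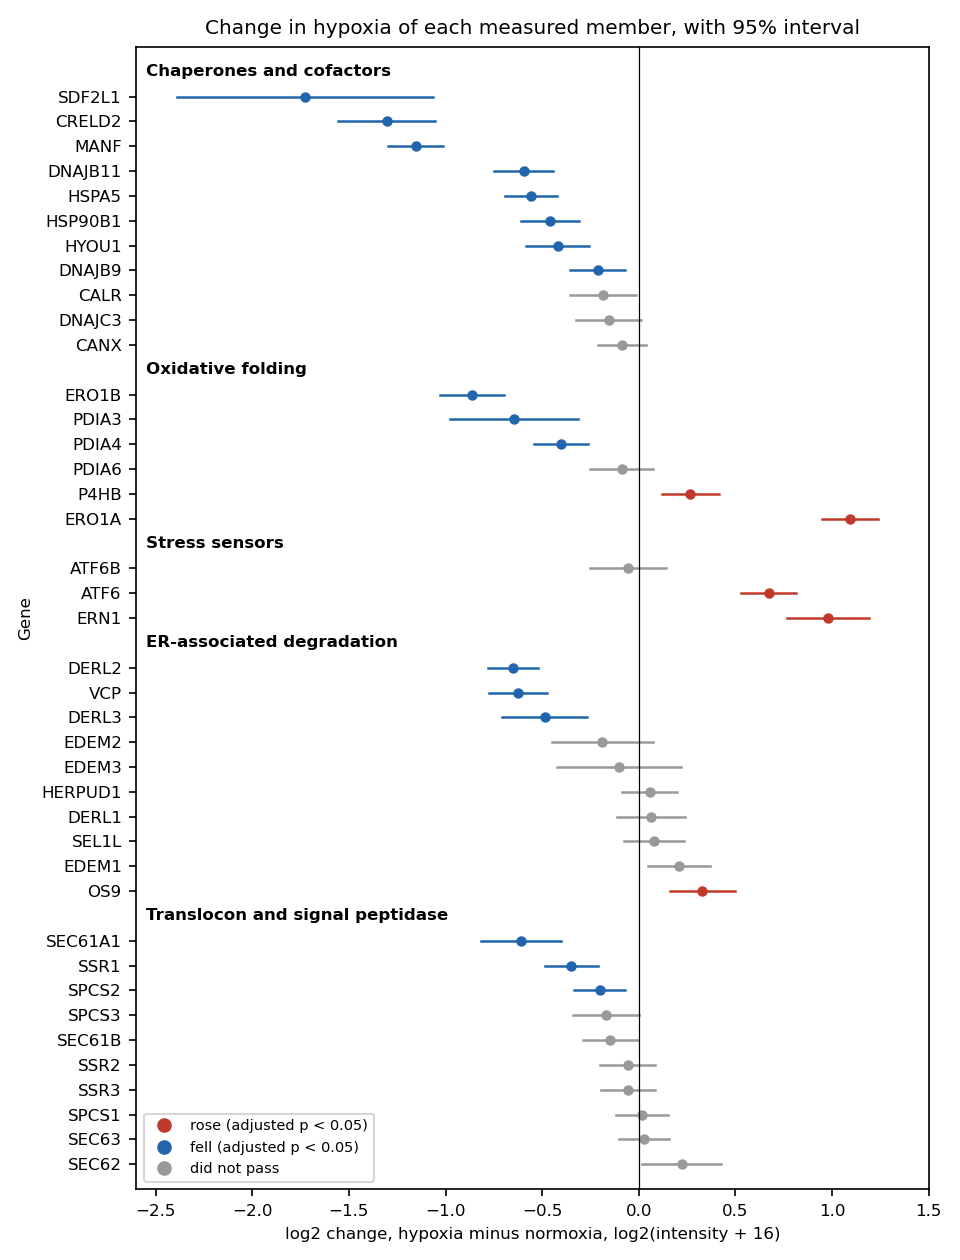
Change of each of the 40 measured members, hypoxia minus normoxia in log2(intensity + 16), grouped by role. Points are estimates, lines 95% confidence intervals, and colours the call at an adjusted p of 0.05 in limma. All 11 chaperones lie left of 0, and ERO1A (1.09), ERN1 (0.98) and ATF6 (0.67) lie farthest to the right.

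The known hypoxia-responsive genes set beside the labels all rose, 10 of 10, against 16.9% of all genes, with changes from 0.44 for DDIT4 to 3.58 for HILPDA. They were chosen with earlier results of these data known, so they are not an independent check of the labels. Of 10 plasma cell markers, the mean of CD27 alone lay below the lowest array median. The summed intensity of these markers was 54848 to 56841 in normoxia and 53689 to 56195 in hypoxia. In limma SDC1, CD38, SLAMF7 and MZB1 fell, XBP1 rose and 5 did not pass. The summed intensities of 5 markers each were 926 to 1091 and 711 to 788 for T cells, 217 to 226 and 213 to 248 for myeloid cells, 292 to 341 and 235 to 370 for stromal cells, and 190 to 209 and 218 to 255 for epithelial cells, in normoxia and hypoxia. TRAT1 fell from 756 to 494, CD3D rose from 98.3 to 132 and EPCAM rose from 24.8 to 67.3, and none of the 20 was listed at 0. Their part in the results was not tested.

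Of the 11 chaperones and cofactors 8 (72.7%) fell, against 20.6% of all genes. In the fit of genes with a mean intensity of at least 100, 10 (90.9%) fell, against 39.0% of those tested. The largest falls were those of SDF2L1, CRELD2 and MANF. MANF, a small ER stress-induced protein that binds BiP, had intensities of 3483, 3536 and 3608 in normoxia and of 1655, 1532 and 1561 in hypoxia (log2 change -1.16, 95% interval -1.30 to -1.01, limma adjusted p = 6.14e-05). CRELD2, an ER protein with disulphide isomerase activity that is induced by ER stress, was at 1271, 1419 and 1435 in normoxia and at 482, 603 and 562 in hypoxia (log2 change -1.30, -1.56 to -1.05, limma adjusted p = 0.000241). For both genes every hypoxia array lay well below every normoxia array. SDF2L1, which keeps BiP clients from aggregating in a complex with DNAJB11, is given because its change was the largest of all members. It was at 1394, 1933 and 2106 in normoxia and at 362, 634 and 638 in hypoxia (log2 change -1.73, -2.39 to -1.07, limma adjusted p = 0.00354). Its arrays numbered 0 were the lowest of their groups, and without both of them the change was -1.64.

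HSPA5, which encodes BiP, the main ER chaperone of the HSP70 family, was at 8707, 9053 and 9014 in normoxia and at 5861, 6149 and 6172 in hypoxia. Its log2 change was -0.56 (-0.69 to -0.42, limma adjusted p = 0.000561). DNAJB11, a BiP co-chaperone, was at 6329, 6798 and 6530 and then at 4213, 4533 and 4245 (log2 change -0.60, limma adjusted p = 0.000667). The normoxia and hypoxia arrays did not overlap for either gene. HSP90B1, the ER member of the HSP90 family known as GRP94, was at 7411, 7616 and 7413 in normoxia and at 5158, 5505 and 5654 in hypoxia (log2 change -0.46, limma adjusted p = 0.00173). Both of its probe sets carry the suffix for probes that may bind other transcripts, and both fell. The brightest probe sets of CALR, OS9 and SPCS3 carry that suffix too, as does that of SRPRB, a gene outside the list named below. HYOU1, a BiP exchange factor that was named for its induction by low oxygen, fell by 0.42 on the log2 scale, from 4120 ± 237 to 3071 ± 85.5 (SD, n = 3 arrays; limma adjusted p = 0.00380).

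The remaining chaperones changed less on their brightest probe sets. DNAJB9, a BiP co-chaperone that also restrains IRE1, went from 3632 ± 110 to 3131 ± 93.5 (log2 change -0.21, limma adjusted p = 0.0307), a call lost without any of the arrays in turn (adjusted p = 0.0540 to 0.103) and with the replicate block (adjusted p = 0.0545). Its other probe sets fell by 0.68 and 0.41, and the average of all fell by 0.43 (adjusted p = 0.00358 in limma). The lectin chaperones of glycoproteins, CALR and CANX, were at log2 changes of -0.18 and -0.087 and did not pass (limma adjusted p = 0.0910 and 0.251). DNAJC3, a BiP co-chaperone and inhibitor of PERK, was at -0.16 (limma adjusted p = 0.132), but passed when its probe sets were averaged (-0.55, adjusted p = 0.00432). With the intensity trend CALR, CANX and DNAJC3 passed as well, so that 11 of 11 chaperones fell. That setting was more permissive, since 7 members gained a call and 0 lost one. The share of all genes called under it is not given here. For all 11 chaperones the hypoxia arrays lay below all normoxia arrays, which was the case for 25.8% of all genes, and for 22 of the 40 members. The opposite order was seen in 7 members and in 22.1% of all genes.

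Enzymes of oxidative folding moved in both directions. ERO1A, the oxidase that passes electrons from protein disulphide isomerase to oxygen and is known to respond to hypoxia, had intensities of 1591, 1704 and 1667 in normoxia and of 3421, 3556 and 3655 in hypoxia. That was the largest rise of any member, at a log2 change of 1.09 (0.95 to 1.24, limma adjusted p = 7.56e-05), and its other probe sets rose by 0.86 and 1.18. Its paralogue ERO1B gave opposite answers from its pair of probe sets. The brighter was at 269, 274 and 269 in normoxia and at 134, 154 and 137 in hypoxia (log2 change -0.86, -1.03 to -0.70, limma adjusted p = 0.000241). The dimmer went from 86.2 ± 4.56 to 190 ± 10.8 (SD, n = 3 arrays; a rise of 1.01, adjusted p = 0.000213 in limma over the single-symbol probe sets). With its probe sets averaged ERO1B was at 0.073 (limma adjusted p = 0.477), so no direction is given for the gene.

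Among the protein disulphide isomerases, which form and reshuffle disulphide bonds, PDIA4 and PDIA3 fell and P4HB rose. PDIA4 was at 6587, 6568 and 6883 in normoxia and at 4911, 5214 and 5027 in hypoxia (log2 change -0.40, limma adjusted p = 0.00234). PDIA3, the isomerase that works with calnexin and calreticulin, was at 1464, 1238 and 1178 and then at 965, 765 and 742 (log2 change -0.64, limma adjusted p = 0.0116). Its arrays numbered 0 were the highest of both groups, and all 3 of its probe sets fell. P4HB, the isomerase that is also a subunit of collagen prolyl hydroxylase, was at 5818, 6022 and 6274 in normoxia and at 7004, 7452 and 7332 in hypoxia (log2 change 0.27, limma adjusted p = 0.0159). The call of P4HB was lost without normoxia array 1 and without hypoxia arrays 1 or 2 (0.25 to 0.26, adjusted p = 0.0523 to 0.0580) and with its probe sets averaged (0.17, adjusted p = 0.102). PDIA6 was at -0.089 (limma adjusted p = 0.373), and its 3 other probe sets, at -0.13 to -0.10, did not pass either.

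**Figure D2:**
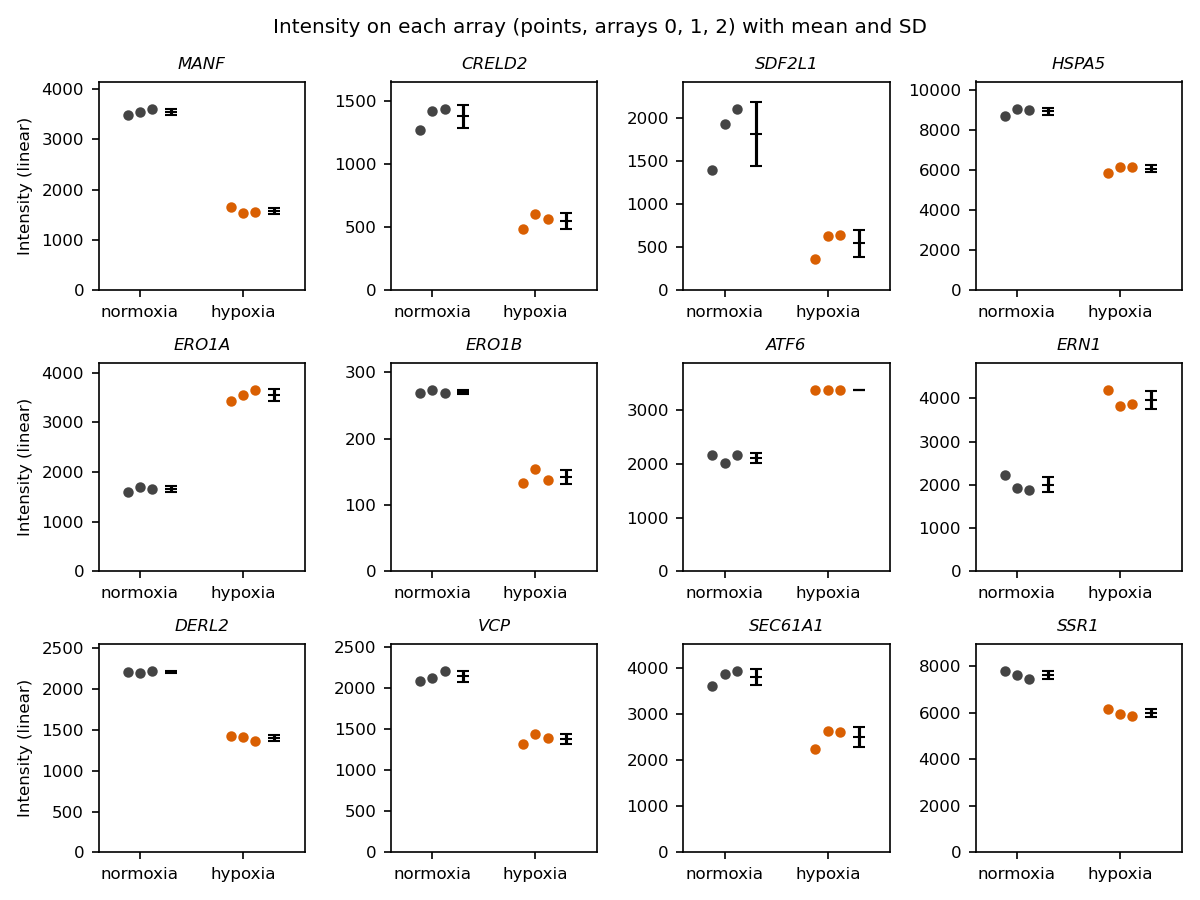
Linear intensity (y axis, from 0) of 12 members on each of the 3 normoxia (grey) and 3 hypoxia (orange) arrays, with the group mean and SD beside the points. All 12 are members that passed, so the lack of overlap in their panels was largely set by that choice. Over all genes, every hypoxia array lay below every normoxia array in 25.8% and above in 22.1%. ERO1A, ATF6 and ERN1 are the panels in which hypoxia is higher. The brightest probe set is shown, and the other of ERO1B rose by 1.01.

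Of the sensors, ATF6 and ERN1 rose and ATF6B did not pass. ATF6, a membrane-bound transcription factor that is cut in the Golgi to release its active part, was at 2159, 2012 and 2175 in normoxia and at 3382, 3373 and 3381 in hypoxia (log2 change 0.67, 0.53 to 0.81, limma adjusted p = 0.000323). ERN1, which encodes the kinase and endoribonuclease IRE1, was at 2216, 1922 and 1884 in normoxia and at 4197, 3817 and 3877 in hypoxia (log2 change 0.98, 0.77 to 1.19, limma adjusted p = 0.000353). In both the lowest hypoxia array lay far above the highest normoxia array. Another 2 probe sets of ATF6 rose, by 0.49 and 0.65, while 1 was at -0.11 and did not pass. Another probe set of ERN1 rose by 0.95, and the last was dim, at 80.4 ± 7.69 and 84.5 ± 42.4. ATF6B, the paralogue of ATF6, was at 634, 663 and 724 in normoxia and at 603, 658 and 681 in hypoxia, where the groups overlapped (log2 change -0.056, limma adjusted p = 0.654). Another, dim probe set rose from 48.8 ± 5.09 to 78.7 ± 10.5. The arrays measure transcript levels, not the cleavage of ATF6 or the activity of IRE1.

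In ERAD, 3 of 10 measured members (30%) fell, 1 (10%) rose and 6 did not pass, against 20.6% of all genes that fell and 16.9% that rose. In the fit of genes with a mean intensity of at least 100, 30% of them fell and 20% rose. Of all genes in that fit 39.0% fell and 31.3% rose. DERL2, a membrane protein through which misfolded substrates leave the ER, was at 2206, 2190 and 2222 in normoxia and at 1430, 1407 and 1365 in hypoxia (log2 change -0.65, -0.78 to -0.52, limma adjusted p = 0.000263). VCP, the ATPase that pulls ubiquitinated substrates from the membrane, was at 2086, 2126 and 2208 and then at 1315, 1439 and 1394 (log2 change -0.62, limma adjusted p = 0.000556). Both genes fell on their second probe set as well, by 0.66 and 0.63. DERL3, a relative of DERL2 that is known from secretory cells, was at 1098, 975 and 990.2 in normoxia and at 792, 718 and 663 in hypoxia (log2 change -0.49, limma adjusted p = 0.00699). Its other probe sets, at 0.019 and -0.078, did not pass, and with the mean of all 3 the call was lost (adjusted p = 0.0580). OS9, a lectin that delivers glycoproteins to the SEL1L complex, was at 2022, 1804 and 1842 in normoxia and at 2466, 2330 and 2325 in hypoxia (log2 change 0.33, limma adjusted p = 0.0118), a call lost when its probe sets were averaged (0.23, adjusted p = 0.270).

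The mannose-trimming lectins EDEM1, EDEM2 and EDEM3 did not pass, at log2 changes of 0.21, -0.19 and -0.10. EDEM1 was at 5532, 4958 and 5278 in normoxia and at 6195, 5886 and 6122 in hypoxia (limma adjusted p = 0.0512). Its groups did not overlap, and it passed without normoxia array 0 (adjusted p = 0.0492) and with the replicate block (adjusted p = 0.0459). HERPUD1, a membrane scaffold of the ERAD ligase, was at 0.057 with overlapping groups, and a dimmer probe set of it rose by 0.60. DERL1, a relative of DERL2, was at 3249, 3541 and 3552 in normoxia and at 3379, 3702 and 3738 in hypoxia, again with overlap (log2 change 0.064), while another of its probe sets fell by 0.34. SEL1L, the adaptor of that ligase, was at 5937, 5730 and 5490 in normoxia and at 6305, 5873 and 5945 in hypoxia on its brightest probe set (log2 change 0.079). Among its others, one fell by 1.44, from 391 ± 12.5 to 134 ± 17.4, another fell by 0.29 and the last was at -0.14. The average over all of its probe sets, the brightest included, fell by 0.45 (adjusted p = 0.00199 in limma). The direction for SEL1L therefore depends on the probe set.

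Among the translocon and its partners 3 of 10 measured members (30%) fell, 0 rose and 7 did not pass. Of all genes 20.6% fell and 16.9% rose. In the fit of genes with a mean intensity of at least 100, 50% of them fell and 10% rose, against 39.0% and 31.3% of those tested. SEC61A1, which encodes the pore-forming subunit of the channel, was at 3607, 3881 and 3943 in normoxia and at 2250, 2637 and 2604 in hypoxia (log2 change -0.61, -0.82 to -0.40, limma adjusted p = 0.00223). SSR1, a subunit of the translocon-associated TRAP complex, was at 7794, 7623 and 7449 and then at 6157, 5936 and 5851 (log2 change -0.35, limma adjusted p = 0.00371). The second probe set of SEC61A1 fell by 0.50, and 3 of the 5 others of SSR1 fell by 0.52 to 0.83. SPCS2, a subunit of signal peptidase, was at 10256, 9774 and 10282 in normoxia and at 8647, 8853 and 8822 in hypoxia (log2 change -0.20, limma adjusted p = 0.0290). That call was lost when any array but normoxia array 1 was left out (adjusted p = 0.0619 to 0.0970) and with the replicate block (adjusted p = 0.0536). Quantile normalization (limma adjusted p = 0.054) and the average of the SPCS2 probe sets (limma adjusted p = 0.115) lost the call as well. SEC61B, a small subunit of the channel, was at 10521, 10362 and 10982 in normoxia and at 9433, 9376 and 9929 in hypoxia, which did not pass (log2 change -0.15, limma adjusted p = 0.0993).

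The other TRAP and signal peptidase genes did not pass on their brightest probe sets, SSR2 at -0.058, SSR3 at -0.056, SPCS1 at 0.017 and SPCS3 at -0.17. Another probe set of SSR3 fell by 1.21, from 362 ± 6.80 to 148 ± 10.7 (SD, n = 3 arrays), and the average of its probe sets fell by 0.29 (adjusted p = 0.00911 in limma). SEC62 and SEC63, which help post-translational entry into the ER, showed disagreement between probe sets. SEC62 was at 5958, 6644 and 6904 in normoxia and at 7079, 7861 and 7810 in hypoxia (log2 change 0.22, limma adjusted p = 0.0880), while another probe set rose by 0.25 and a further pair fell by 0.27 and 0.48. SEC63 was at 3423, 3242 and 3344 and then at 3371, 3405 and 3412 (log2 change 0.026), while 3 of its dimmer probe sets fell by 0.76 to 0.96. SPCS3, at 6100, 5533 and 6177 in normoxia and at 5066, 5303 and 5454 in hypoxia, had no overlap between groups (limma adjusted p = 0.116). It passed as a fall under median centring, the minimum intensity, the intensity trend and the average of its probe sets (adjusted p = 0.0227 to 0.0461), while 1 of its other probe sets rose by 0.21 and another fell by 0.71. No direction is given for these genes.

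Agreement between probe sets was examined for all 31 members that have several, with each probe set tested over all 41091 that carry a single symbol, of which 15.8% rose and 18.0% fell. Of the 67 further probe sets, 27 passed in the direction of the brightest, 11 passed against it and 29 did not pass. Among the 17 members that passed on the brightest and have others, 13 had another that passed the same way and only ERO1B had an opposite call. Where the brightest did not pass, another did in 10 of 14 members, among them DNAJC3, whose dimmer probe sets all fell, by 0.64 to 0.71, and CALR, whose dimmest fell by 0.59. For HSPA5 the dimmer probe set fell by 1.13, from 459 ± 11.3 to 201 ± 15.5. In 22 of the 31 members (71.0%) the median size of the change on the other probe sets exceeded that on the brightest, against 47.6% of all 10523 genes with several probe sets.

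**Figure D3:**
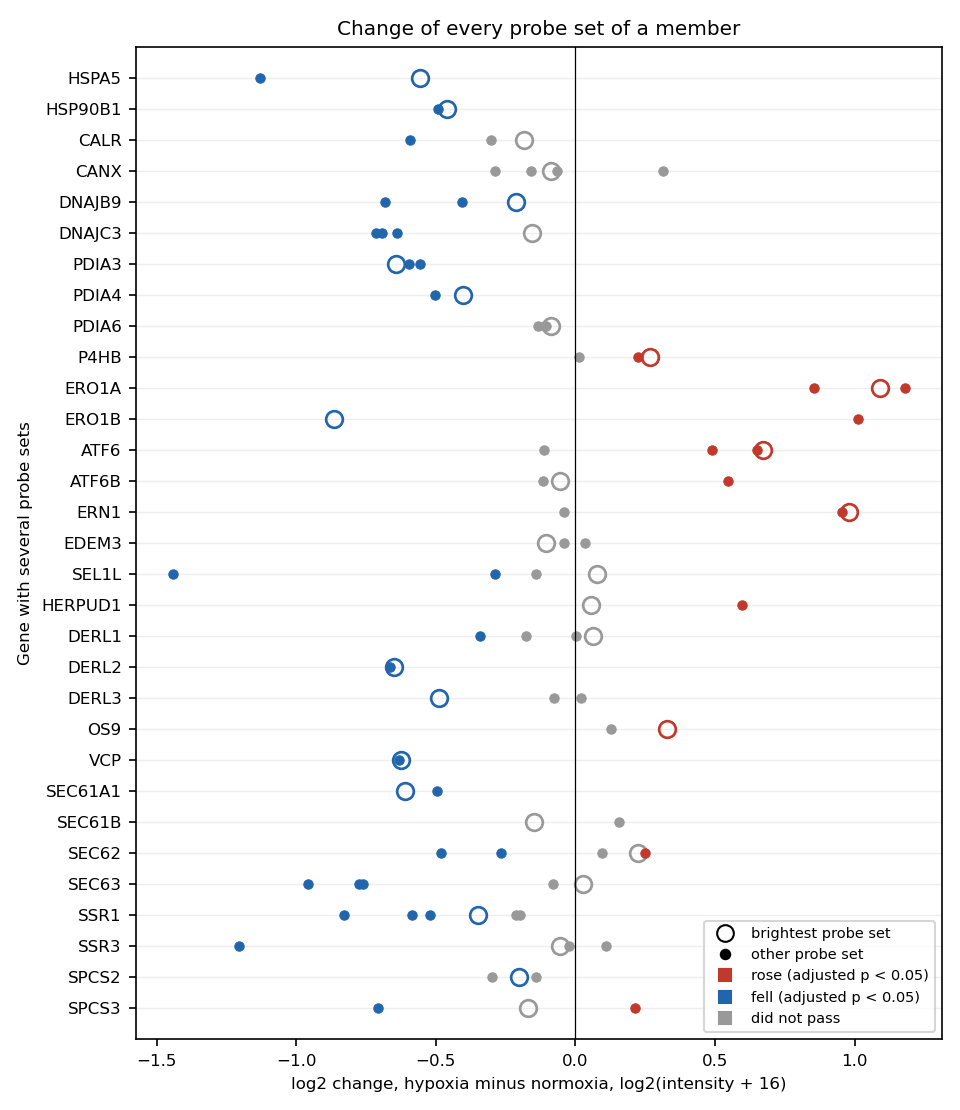
Change of every probe set of the 31 members that have several (x axis, hypoxia minus normoxia in log2(intensity + 16)). Open circles mark the brightest probe set, filled points the others, and colours the call over all single-symbol probe sets. The points of ERO1B lie on opposite sides of 0, at -0.86 and 1.01, and those of DNAJC3 other than the brightest lie at -0.71 to -0.64.

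Set beside the promoter matches shown above, 6 of the 10 members with ERSE or ERSE-II fell, 0 rose and 4 did not pass, with a median change of -0.44. These were CRELD2, HSPA5, HSP90B1, SDF2L1 and HYOU1, and ERO1B with the doubt given above, while CALR, CANX, PDIA6 and HERPUD1 did not pass. Of the 26 measured members with a promoter in the table and neither element, 9 fell and 5 rose, with a median of -0.13, and MANF, whose fall was among the largest, was one of them. Outside the list, 27 measured genes had either element, and 7 of them fell and 4 rose, with a median of -0.051. Over all genes 20.6% fell and 16.9% rose. These groups were not tested against each other, and they differ in role. All of the 10 but HERPUD1 are chaperones or enzymes of oxidative folding. Of the 17 measured members of those roles, with or without an element, 11 (64.7%) fell and 2 (11.8%) rose, with a median of -0.42. The part of role in these shares was not tested. ACGTG was in the promoters of 20 measured members, of which 2 rose, ERO1A and OS9, 8 fell and 10 did not pass. Of the 16 measured members whose searched promoters lacked it, 3 rose and 7 fell. Among all measured genes with ACGTG 20.3% rose and 25.4% fell.

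**Figure D4:**
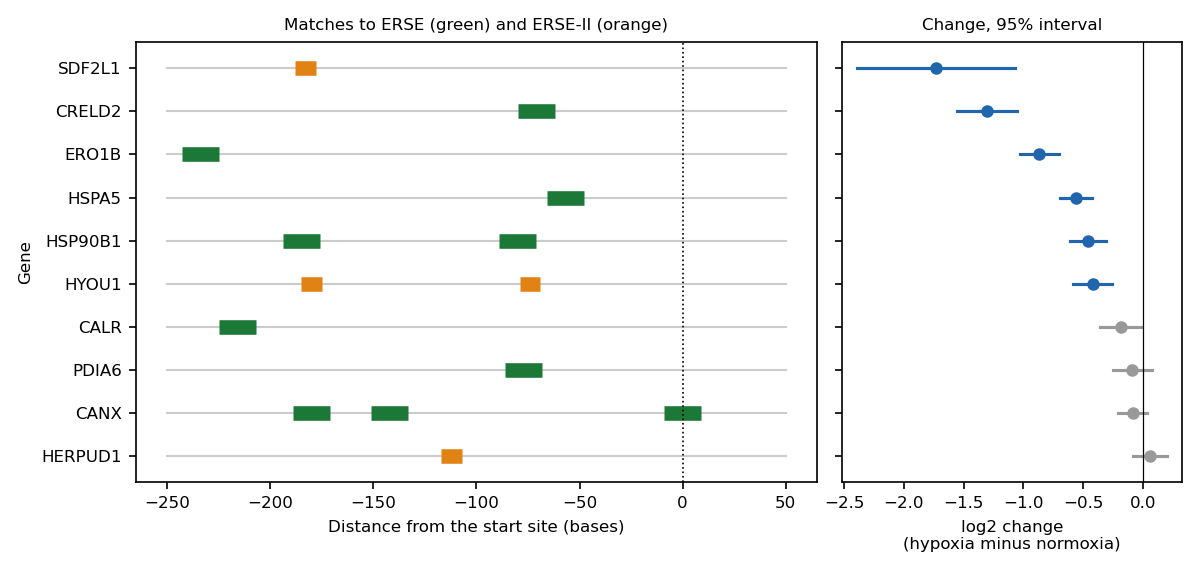
Left, positions of ERSE and ERSE-II matches from 250 bases before to 50 bases after the start for the 10 members that have one, with all annotated starts of a gene drawn on 1 line. Right, the change of each gene with its 95% confidence interval (blue fell, grey did not pass). Genes are ordered by change, from SDF2L1 (-1.73) to HERPUD1 (0.057).

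Beyond the members, 111 other genes of the same processes were listed, and 106 were measured. Of these 44 (41.5%) fell, 20 (18.9%) rose and 42 did not pass (median -0.14), against 20.6% of all genes that fell and 16.9% that rose. Their median normoxia intensity was 2082, beside 114 over all genes. Among genes with a mean intensity of at least 100, tested alone, 39.0% fell and 31.3% rose. The count of these 106 genes in that fit is not given here, and the part of brightness was not tested. The remaining sensor gene, EIF2AK3, which encodes PERK, was at 2006 ± 36.7 in normoxia and 3479 ± 43.8 in hypoxia (SD, n = 3 arrays), a rise of 0.79 on the log2 scale (limma adjusted p = 0.000130), but did not pass when its probe sets were averaged (0.31, adjusted p = 0.115). XBP1 rose by 0.22, from 9674 ± 200.3 to 11291 ± 453 (limma adjusted p = 0.0278), a call lost without any of the arrays in turn (adjusted p = 0.0530 to 0.0871). The call was also lost under median centring (0.19, limma adjusted p = 0.0891) and with its probe sets averaged (0.23, limma adjusted p = 0.0693). The arrays do not separate the spliced form of XBP1. CREB3L4, a factor related to ATF6, rose by 0.42. BHLHA15, a transcription factor of secretory cells known as MIST1, fell from 1135 ± 94.7 to 265 ± 14.5 (log2 change -2.03, limma adjusted p = 3.96e-05). MBTPS2, a protease that cuts ATF6, fell by 0.74 (-0.099 and adjusted p = 0.367 with the mean of its probe sets), and ATF4, the factor downstream of PERK, fell by 0.37. Of the 13 measured genes of this group 4 (30.8%) rose and 3 (23.1%) fell.

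Of the other folding helpers 16 of 36 (44.4%) fell and 4 (11.1%) rose, against 20.6% of all genes that fell and 16.9% that rose. This list was not counted in the fit of genes with a mean intensity of at least 100. TMX3 (-1.20), a membrane-bound disulphide isomerase, RCN1 (-1.18), a calcium-binding ER protein, and MESD (-1.08), a chaperone of lipoprotein receptors, had the smallest adjusted p-values among those that fell (limma adjusted p of at most 8.50e-05). The prolyl isomerase FKBP14 rose by 1.24, from 402 ± 12.4 to 968 ± 12.1, DNAJC1 by 0.27 and ERP44, which retains ERO1 oxidases in the early secretory pathway, by 0.51. For ERP44 the mean of its probe sets was at -0.091 and did not pass. In the other ERAD genes falls and rises were equal, at 10 and 10 of 27 (37% each). The ubiquitin-conjugating enzyme UBE2G2 fell by 1.03, ERLIN1, which acts in the degradation of sterol-regulated proteins, by 1.22, and the VCP cofactor UFD1 by 0.88, while the ligase MARCHF6 rose by 1.08, FAM8A1, a partner of the SYVN1 ligase, by 1.05 and the deglycosylating enzyme NGLY1 by 0.51. Among the 30 other genes of targeting and translocation, 15 (50%) fell and 2 (6.67%) rose. SRPRB, a subunit of the receptor that docks ribosomes at the ER, fell from 3491 ± 67.3 to 1198 ± 43.6 (log2 change -1.53, limma adjusted p = 3.36e-05), EMC8 and CCDC47, of membrane protein insertion, by 0.83 and 0.71, and the genes that rose were SEC61A2 (1.16) and CAMLG (0.44).

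**Figure D5:**
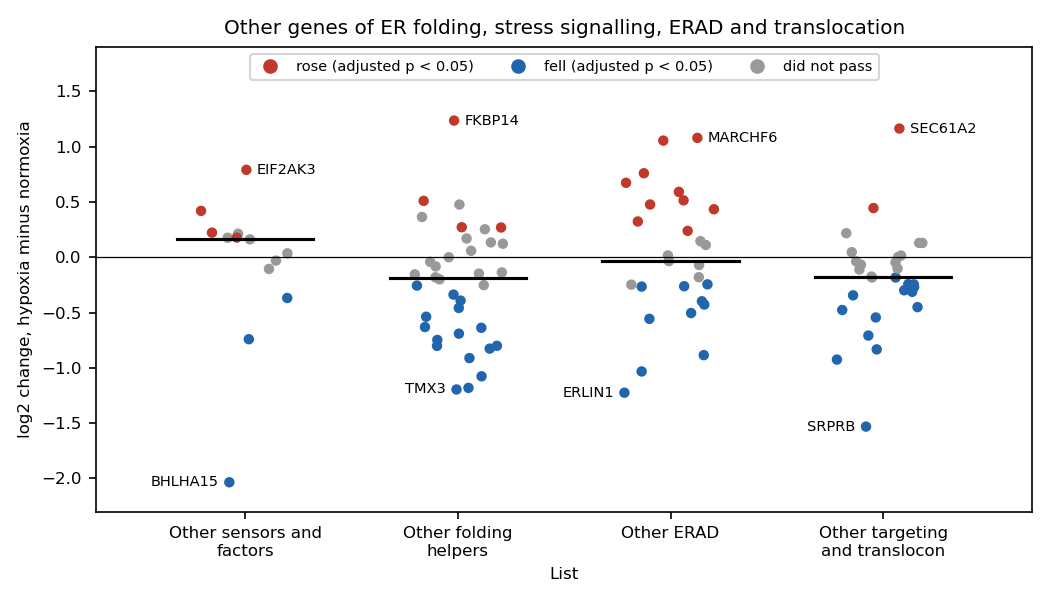
Change of the 106 other measured genes, hypoxia minus normoxia in log2(intensity + 16), in 4 lists. Each point is a gene coloured by its call, horizontal bars are list medians, and the lowest and highest gene of each list are named. BHLHA15 (-2.03) and SRPRB (-1.53) are the lowest points, and FKBP14 (1.24) is the highest.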

How the data were processed

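The authors' deposited values are linear intensities of 54613 probe sets on each array. Their background correction, summarisation and scaling are not given in the sources used here. RNA was isolated with an RNeasy kit and labelled as biotinylated cRNA, per the labels' protocols. The number of arrays limits the precision, and no detection calls were used. Gene names come from the platform's annotation table, in which 41091 probe sets carry 1 symbol, 1801 several and 11721 none, and 41037 of the first were matched to RefSeq by gene ID. The brightest single-symbol probe set, by mean log2 value, stood for each gene. Hypoxia was compared with normoxia in log2(intensity + 16) in limma 3.58.1 (R 4.3.3; lmFit, then eBayes), with a two-sided test and no covariates. The p-values were adjusted by Benjamini-Hochberg across the 19775 genes, at a threshold of 0.05. The code was tested on simulated data. Members, roles, lists and tests were chosen with earlier results of these data known. The text gives every array for all sensors, for up to 5 members of each other role with the smallest adjusted p, for members with an opposite probe set and, chosen after its values were seen, for SDF2L1. Of the other lists it names up to 3 genes each way with the smallest adjusted p. Alternatives were pseudocounts of 1 and 64, median centring, quantile normalization, the mean of probe sets, a minimum mean intensity of 100, an intensity trend, a replicate block, leaving out each array and, chosen after seeing the data, both arrays numbered 0. All 15 array pairs shared 1.07% to 1.23% of their values, so each array was counted as 1 sample. A search of protein ends was planned and not run, since no protein table was used here.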

Additional observations from a re-analysis of the deposited data

How the results depend on the processing

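Members that fell numbered 15 to 22 and members that rose 4 to 7 over all alternatives, and their median change was -0.22 to -0.13. With the mean of probe sets, 1 gene of oxidative folding rose instead of 2, 5 translocon genes fell instead of 3, and ERO1B (0.073), SEL1L (-0.45), SEC63 (-0.51), ERP44 (-0.091), DNAJC10 (0.030), ATXN3 (0.50), YOD1 (-0.00501) and EMC10 (0.31) changed sign, as did DERL1 (-0.11), ATF6B (0.12), SEC62 (-0.036) and SEC61B (0.0045), which passed in neither setting. With a pseudocount of 64, quantile normalization, the minimum intensity of 100, the intensity trend and the replicate block, 2 ERAD genes rose instead of 1. Under the last 4 of these 1 translocon gene rose instead of 0, and with the minimum intensity or the trend 5 fell. The ERAD gene was EDEM1 and the translocon gene SEC62. The minimum intensity and the trend also brought in CALR, DNAJC3, SEC61B and SPCS3 as falls, and the trend CANX, so that 10 and 11 chaperones fell instead of 8. Under the minimum intensity 39.0% of the genes tested fell, against 20.6% in the main fit. The share under the trend is not given here. The cause of the added calls was not tested. With 1 array left out, 1 to 2 genes of oxidative folding and 1 to 2 of ERAD rose. Same-numbered arrays did not deviate together throughout (correlations of 0.24, 0.0064 and 0.21 for numbers 0, 1 and 2), so the numbers were not taken as pairs, and with the replicate block 15 members fell and 7 rose. The arrays give no detection limit, so dim values cannot be told from background.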
